A study of Mus musculus with 17 samples.

Results

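The genes described here are 9 markers of the red cell lineage: the transcription factors Gata1 and Klf1, the erythropoietin receptor gene Epor, the carbonic anhydrase genes Car1 and Car2, the adult alpha-globin genes Hba-a1 and Hba-a2, and the adult beta-globin genes Hbb-bs and Hbb-bt. They were taken by symbol from a table of read counts for 35321 gene symbols, and all 9 were present and passed the filter on low counts. The table covers polyadenylated RNA from 17 libraries of HSPC (the stem and progenitor cells from which blood forms), sorted from the bone marrow of wild-type C57BL/6J mice. Every mouse had received an intraperitoneal injection. The 5 PBS libraries came from mice given phosphate-buffered saline and are titled day 0. Other mice were given lipopolysaccharide (LPS, a component of the outer membrane of Gram-negative bacteria that triggers inflammation), alone or with a blocking antibody to IL-10R, the receptor for the anti-inflammatory cytokine interleukin-10, and marrow was taken after 24 h or 72 h. Both treatments at both times make 4 groups, of 3 libraries each. The series text puts LPS at 5 and the antibody at 100 micrograms, the sample protocol gives the same figures in milligrams, and neither unit was assumed. The staining that defined HSPC is not described in the labels, and none of the groups analysed here received the antibody without LPS. The series title names IL-10 receptor signalling and inflammation-induced exhaustion of stem cells as its subject.

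Red cells arise from stem and progenitor cells through erythroid progenitors and then erythroblasts. GATA1 and KLF1 are the main transcription factors of this lineage, erythropoietin acting through its receptor keeps erythroid progenitors alive, and carbonic anhydrase 1 and 2 are abundant red cell enzymes that interconvert carbon dioxide and bicarbonate. Alpha and beta globin are the protein chains of hemoglobin and accumulate mainly in erythroblasts, later than the factors and the receptor, so a sort for immature cells is not where globin RNA is usually abundant.

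In outline, the 9 genes did not move as 1 set. At 24 h after LPS alone, Gata1, Klf1, Epor and Car1 were higher in every LPS library than in any PBS library, while Hba-a1, Hbb-bs and Hbb-bt were lower in every LPS library. Of all tested genes, 20.6% were higher and 22.2% lower in this way. Of the genes just named, only Hbb-bt passed the test across all libraries. At 72 h after LPS alone, all 9 genes had a lower mean than in PBS. In the groups given the antibody, libraries of the same group differed in Klf1 by 71.2 times at 24 h and 80.2 times at 72 h. In LPS at 72 h without the antibody they differed by 23.1 times, with 5 Klf1 reads in the lowest library. A gene of the 9 passed the test across all libraries in 3 of the 9 comparisons made.

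The promoters of 5 members are shown because they belong to the sets that moved apart: Klf1 and Epor were high at 24 h, the alpha-globin gene Hba-a2 and the beta-globin gene Hbb-bs were low, and Hbb-bt departed from both in the later groups. RefSeq promoter entries (GRCm38.p6) matched 7 of the 9 genes, all but Car1 and Car2, and each line below gives the 250 bases before the annotated start, read 5′ to 3′ on the gene's strand. Capitals mark matches, on either strand, to 3 motifs: the GATA factor motif (AGATAA and its variant AGATAG, and TGATAA and its variant TGATAG), the CACCC-type motif of KLF factors written as CCNCNCCC, and the CCAAT box. Matches of different motifs did not overlap, and neighbouring matches of the same motif run together.
Klf1 (chr8:84901732-84901981, plus strand): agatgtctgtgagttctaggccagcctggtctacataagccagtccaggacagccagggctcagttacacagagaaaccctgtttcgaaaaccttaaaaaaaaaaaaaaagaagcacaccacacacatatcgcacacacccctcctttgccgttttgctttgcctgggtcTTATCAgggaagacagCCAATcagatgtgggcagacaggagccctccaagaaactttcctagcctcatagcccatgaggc
Epor (chr9:21963577-21963826, minus strand): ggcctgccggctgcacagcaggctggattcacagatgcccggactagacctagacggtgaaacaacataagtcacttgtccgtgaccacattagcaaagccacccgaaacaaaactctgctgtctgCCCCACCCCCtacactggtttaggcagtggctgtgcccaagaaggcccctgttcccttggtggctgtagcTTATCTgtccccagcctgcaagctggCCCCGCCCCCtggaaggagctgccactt
Hba-a2 (chr11:32296242-32296491, plus strand): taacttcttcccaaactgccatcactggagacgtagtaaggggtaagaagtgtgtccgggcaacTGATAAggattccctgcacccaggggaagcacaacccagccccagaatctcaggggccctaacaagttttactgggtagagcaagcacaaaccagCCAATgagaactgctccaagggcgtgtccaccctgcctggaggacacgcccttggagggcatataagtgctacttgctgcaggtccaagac
Hbb-bs (chr7:103827929-103828178, minus strand): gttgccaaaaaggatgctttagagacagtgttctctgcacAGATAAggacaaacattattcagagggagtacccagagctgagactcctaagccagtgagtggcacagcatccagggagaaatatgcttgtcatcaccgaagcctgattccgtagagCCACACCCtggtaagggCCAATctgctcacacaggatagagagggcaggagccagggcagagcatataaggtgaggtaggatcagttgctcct
Hbb-bt (chr7:103813924-103814173, minus strand): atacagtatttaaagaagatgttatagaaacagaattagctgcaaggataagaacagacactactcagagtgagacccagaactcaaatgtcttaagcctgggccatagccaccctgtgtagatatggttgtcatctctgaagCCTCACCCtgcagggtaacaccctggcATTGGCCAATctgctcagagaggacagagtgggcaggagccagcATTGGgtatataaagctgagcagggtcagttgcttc

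The window of Hba-a1 shared a stretch of 247 bases with that of Hba-a2, and the longest stretch that Hbb-bs and Hbb-bt shared was 14 bases. Some GENCODE models of these genes begin inside the RefSeq-based windows. The GATA motif was found in 5 of the 7 windows (Klf1, Epor, Hba-a1, Hba-a2 and Hbb-bs), against 26.5% of 32851 promoter windows of the same length. The CCNCNCCC motif was found in 4 of the 7 (Gata1, Epor, Hbb-bt and Hbb-bs), against 45.9% of all windows, and CCAAT in 5 of the 7 (Klf1 and the 4 globin genes), against 33.8%. The windows of Hbb-bs and Hbb-bt therefore differed in these letters, since the first held a GATA motif and the second did not. A match is a stretch of letters in this window and does not show that a factor binds there, and the lack of one says only that these letters are not in the window.

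Both globin pairs are near-identical copies, which bears on how their reads can be told apart. The coding sequences of Hba-a1 and Hba-a2, 426 bases each, differed at 1 base, and those of Hbb-bs and Hbb-bt, 441 bases each, also differed at 1 base in the GENCODE M21 transcripts. The 60-base coding stretches of exon 3 that end at the differing base are printed here, in lower case, with that base in capitals.
Hba-a1 (chr11:32284284-32284343, plus strand): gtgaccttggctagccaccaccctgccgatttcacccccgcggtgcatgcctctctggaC
Hba-a2 (chr11:32297101-32297160, plus strand): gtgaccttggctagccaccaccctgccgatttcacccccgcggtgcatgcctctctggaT
Hbb-bs (chr7:103826692-103826751, minus strand): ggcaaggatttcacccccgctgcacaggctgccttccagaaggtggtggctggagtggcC
Hbb-bt (chr7:103812683-103812742, minus strand): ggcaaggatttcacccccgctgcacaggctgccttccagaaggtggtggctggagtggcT

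Of the possible 50-base stretches of the Hba-a1 exons, 67.5% also occurred in Hba-a2, and 65.8% of those of Hbb-bs occurred in Hbb-bt. The read length and how multi-mapped reads were counted are not given in the sources used here, so the split of reads between Hba-a1 and Hba-a2, and between Hbb-bs and Hbb-bt, is uncertain. On GRCm38 the alpha-globin genes lie at chromosome 11:32283511-32284465 (Hba-a1) and 32296489-32297298 (Hba-a2), both on the plus strand. The beta-globin genes lie at chromosome 7:103812524-103813996 (Hbb-bt) and 103826534-103828096 (Hbb-bs), both on the minus strand. Gata1 lies at X:7959260-7978071 (minus), Klf1 at 8:84901928-84905291 (plus), Epor at 9:21958897-21963506 (minus), Car1 at 3:14766216-14808368 (minus) and Car2 at 3:14886273-14900770 (plus). All 9 are annotated as protein coding, and Car1 overlaps the gene Gm16399.

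Total counts per library ranged from 10516722 to 16006001, and 3 reads, taken here as the floor of detection, corresponded to 0.172 to 0.281 CPM (counts scaled to 1000000 per library). Intervals and floors cover counting error only. The scaling factor was 0.799 in LPS 24 h library 1 and 0.948 to 1.12 in the others. The column names of the PBS libraries, of the pair of 24 h libraries numbered 1 and of the remaining libraries are written in different styles, and the labels do not say whether this marks a batch. Kit, the receptor that marks early progenitors, was at 228 to 589 CPM and Cd34, another progenitor marker, at 234 to 847 CPM, so both markers were present in every library. In bulk RNA, fewer cells of a type and less RNA per cell cannot be told apart, and this holds for every value below. The labels do not say that the libraries of a group came from separate mice, so p-values measure the spread between these libraries.

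**Figure D1:**
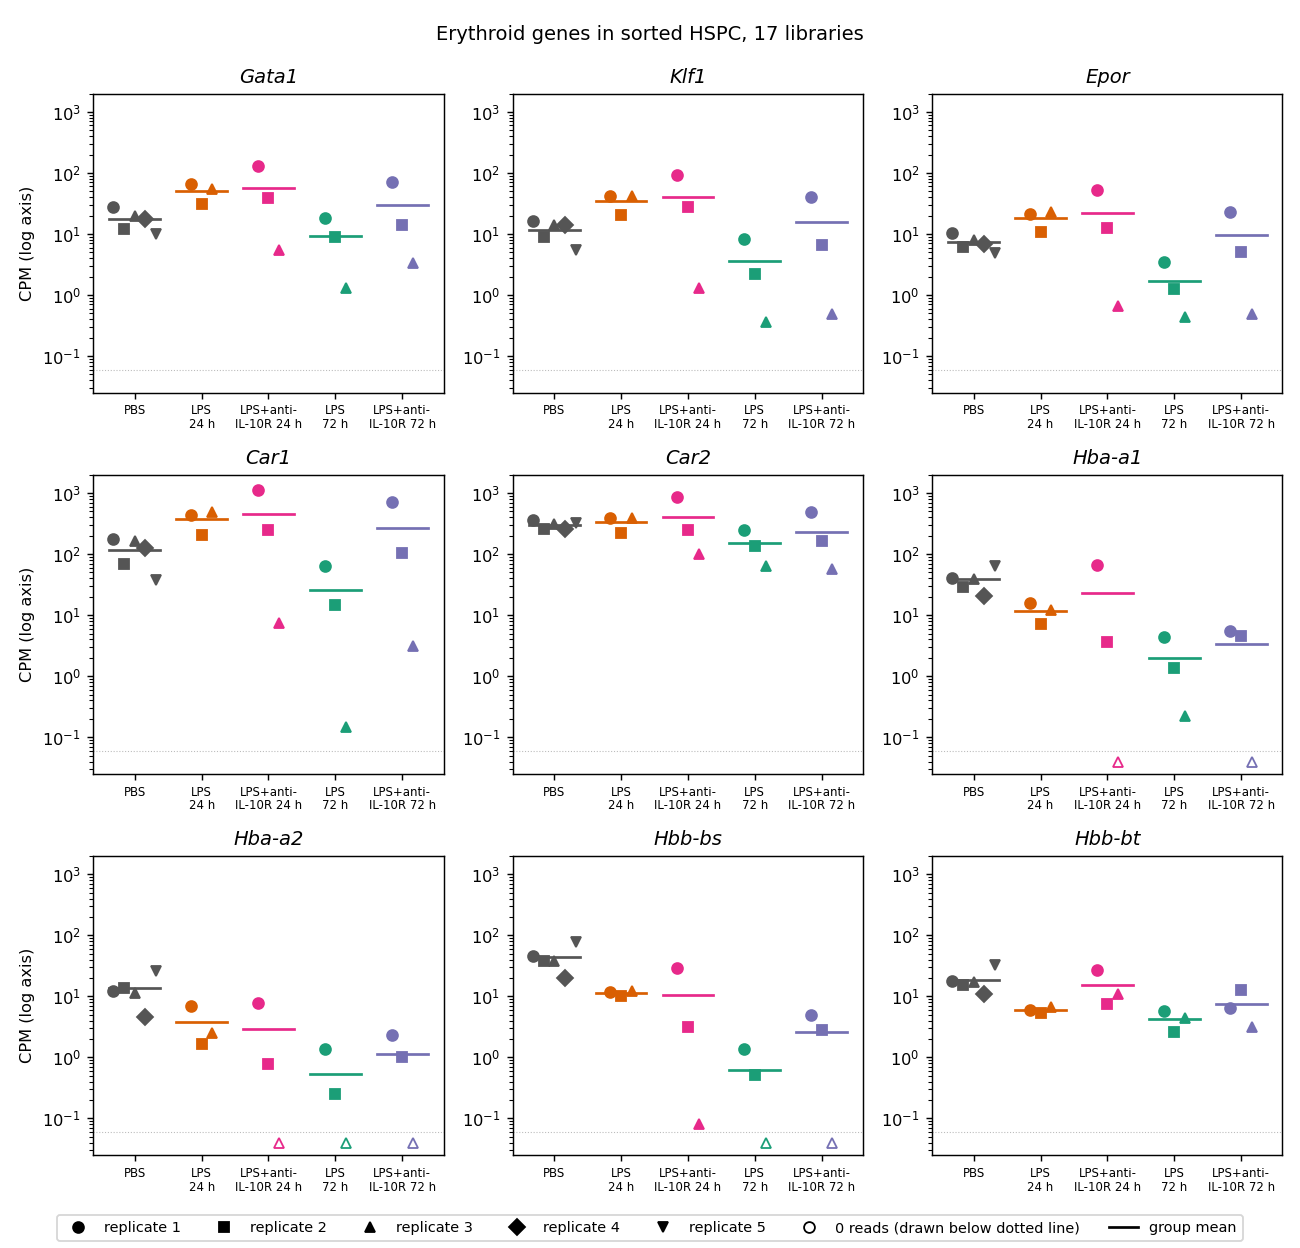
CPM (log axis) of the 9 genes in each of the 17 libraries, by group; symbols give the replicate number, horizontal lines the group mean, and open symbols below the dotted line libraries with 0 reads. Gata1, Klf1, Epor and Car1 stand above all PBS libraries in the 3 LPS 24 h libraries, most globin values stand below, and in the antibody groups and LPS at 72 h library 1 is the highest and library 3 the lowest for 8 of the 9 genes.

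In PBS marrow the 9 genes were present in all 5 libraries. Per kilobase of exon, the mean level was 125 ± 18.8 CPM per kb (SD, n = 5) for Car2, 91.8 ± 48.4 for Car1, 57.4 ± 27.4 for Hbb-bs and 47.9 ± 20.7 for Hba-a1. It was 26.7 ± 11.4 for Hbb-bt, 20.6 ± 11.9 for Hba-a2, 7.71 ± 2.95 for Klf1, 7.17 ± 2.84 for Gata1 and 3.66 ± 1.04 for Epor. The ranges over the 5 libraries overlapped between all neighbours in this order. Within a library, the order of Hbb-bs, Hba-a1, Hbb-bt and Hba-a2, and of Gata1 and Epor, was the same in 5 of 5 libraries, and that of the other neighbours in 3 or 4 of 5. Already in PBS the sets were ranked differently by library: PBS library 5 had the lowest Gata1, Klf1, Epor and Car1 of the 5 and the highest level of all 4 globins.

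Gata1, which encodes the master transcription factor of the erythroid and megakaryocyte lineages, was at 27.7, 12.1, 19.5, 17.8 and 10.2 CPM in PBS libraries 1 to 5 and at 64.9, 31.4 and 53.7 CPM in the LPS 24 h libraries. Klf1, which encodes the activator of the adult beta-globin gene and of many other red cell genes, was at 16.5, 8.81, 14.2, 14.0 and 5.47 CPM in PBS and at 41.6, 20.4 and 42.0 CPM after 24 h of LPS. All 3 LPS libraries lay above all 5 PBS libraries for both genes. The log2 difference was 1.51 (SE 0.864, adjusted p = 0.181, edgeR quasi-likelihood test of all 17 libraries with Benjamini-Hochberg adjustment) for Gata1 and 1.55 (SE 1.01, adjusted p = 0.241) for Klf1, so neither passed. That test shares 1 estimate of spread over all groups, including the antibody groups in which these genes varied most. In a fit of the PBS and LPS 24 h libraries alone, the differences were 1.51 (SE 0.316, adjusted p = 0.00515) and 1.55 (SE 0.339, adjusted p = 0.00615).

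Epor, the receptor through which erythropoietin acts, followed the factors. Its level was 10.4, 6.14, 8.08, 6.89 and 4.91 CPM in PBS and 21.6, 10.8 and 22.7 CPM at 24 h after LPS, without overlap. The log2 difference was 1.33 (SE 0.924, adjusted p = 0.272) in the fit of all libraries and 1.33 (SE 0.284, adjusted p = 0.0056) in the fit of both groups alone.

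The carbonic anhydrases differed from each other. Car1 was at 176, 68.5, 165, 126 and 37.1 CPM in PBS and at 430, 208 and 490 CPM after 24 h of LPS, again without overlap, with a log2 difference of 1.71 (SE 1.28, adjusted p = 0.309; in the fit of both groups alone SE 0.450, adjusted p = 0.0132). Car2 was at 254 to 363 CPM (median 310) in PBS and at 391, 220 and 387 CPM after LPS, so the groups overlapped, and its log2 difference of 0.14 (SE 0.627, adjusted p = 0.880) did not pass in either fit. Counts of Car2 per count of Car1 were accordingly 1.88 to 8.71 (median 2.07) in PBS and 0.790 to 1.05 (median 0.910) at 24 h after LPS.

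All 4 globin genes had a lower mean at 24 h after LPS than in PBS. Hbb-bs, the more highly counted adult beta-globin gene, was at 45.8, 38.3, 38.3, 20.2 and 77.7 CPM in PBS and at 11.95, 10.1 and 12.2 CPM after LPS. Hbb-bt, its neighbouring copy, was at 17.8, 15.6, 17.1, 11.02 and 32.3 CPM in PBS and at 5.93, 5.42 and 6.76 CPM after LPS. Neither beta-globin gene overlapped between the groups. Hbb-bt fell by 1.63 on the log2 scale (SE 0.481, adjusted p = 0.0152), the 1 call among the 9 genes in the fit of all libraries, where 37.6% of the 14920 tested genes were called with 18.5% lower and 19.1% higher. Without LPS 24 h library 1, the library with the lowest scaling factor, the adjusted p of Hbb-bt was 0.0618. For Hbb-bs the log2 difference was -1.95 (SE 1.02, adjusted p = 0.143; in the fit of both groups alone SE 0.366, adjusted p = 0.00337).

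The alpha-globin genes went the same way. Hba-a1 was at 40.6, 29.0, 39.6, 20.3 and 65.0 CPM in PBS and at 15.7, 7.14 and 12.3 CPM after LPS, a log2 difference of -1.73 (SE 1.16, adjusted p = 0.255). Hba-a2 was at 12.4, 13.8, 11.5, 4.51 and 26.4 CPM in PBS and at 7.04, 1.65 and 2.55 CPM after LPS, a log2 difference of -1.89 (SE 1.09, adjusted p = 0.185). Only Hba-a1 was free of overlap. In the fit of both groups alone the adjusted p was 0.00603 for Hba-a1 and 0.0262 for Hba-a2.

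Counted over the set, 1 of 9 genes was called at 24 h of LPS in the fit of all libraries and 8 of 9, all but Car2, in the fit of both groups alone, where 42.1% of 14696 tested genes were called. Without overlap, 4 genes were higher in every LPS library (20.6% of all tested genes) and 3 were lower in every LPS library (22.2%). The median log2 difference of the 9 genes was 0.14, against -0.03 for all tested genes, with genes of both directions in the set. Marker genes of resident macrophages moved with this comparison too: all 12 on the list fell, and their summed level was 377 to 3524 CPM in PBS against 65.7 to 91.8 CPM at 24 h of LPS, with none at 0. Megakaryocyte markers, of a lineage that shares Gata1, summed to 184 to 306 CPM in PBS and 144 to 277 CPM after LPS, and 4 of 10 fell. Of the other lists, 7 of 10 HSPC markers, 3 of 8 B lymphoid and 1 of 6 T and NK markers fell, 0 of 8 neutrophil markers passed, and 1 of 6 mast cell and basophil markers rose. The part of these cell types in the erythroid values was not tested.

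**Figure D2:**
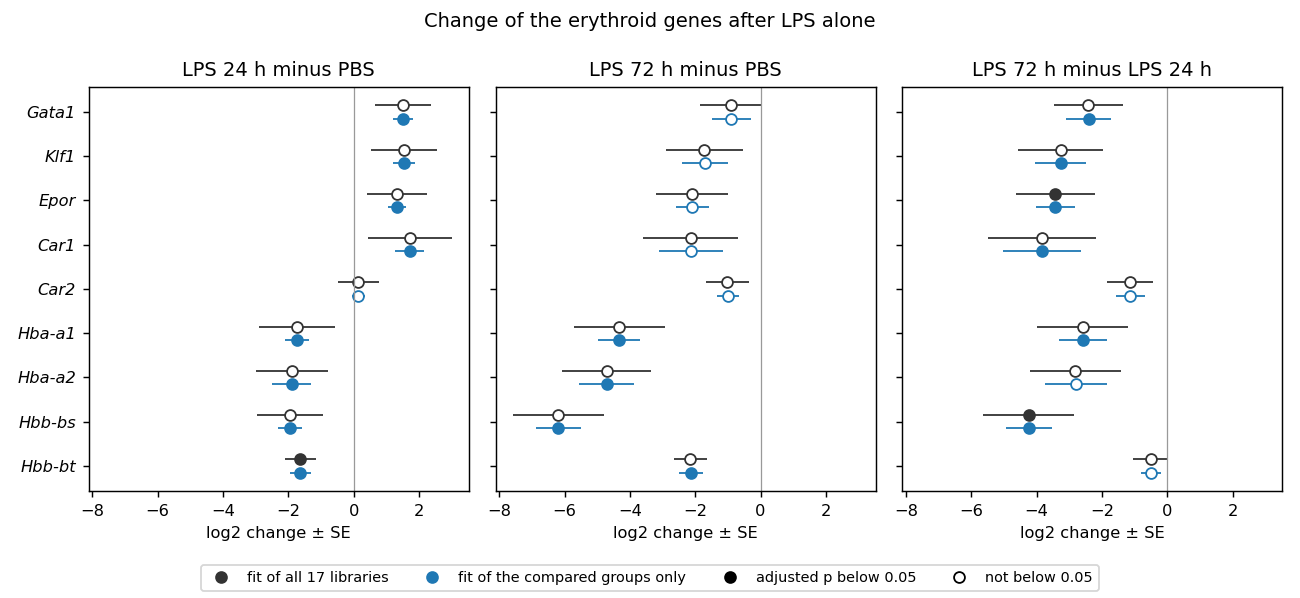
Log2 change (± SE) of the 9 genes after LPS alone, in the fit of all 17 libraries (dark) and in the fit of the compared groups only (blue); filled points have an adjusted p below 0.05. Both fits, drawn one under the other for each gene, give nearly the same change, and the error bars of the second are shorter, so that 8 of 9 points are filled in the first panel against 1.

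At 72 h after LPS alone, the factors, the receptor and the carbonic anhydrases had lower means than in PBS, with overlap for Gata1, Klf1 and Car1. Klf1 was at 8.42, 2.196 and 0.365 CPM and Gata1 at 18.0, 8.95 and 1.32 CPM. Epor was at 3.48, 1.27 and 0.439 CPM, below all PBS libraries, and Car2 at 249, 138 and 63.8 CPM, also below all PBS libraries. Car1 was at 64.1, 14.6 and 0.146 CPM, the last value resting on 2 reads. Library 1 was the highest and library 3 the lowest of the group for each of these 5 genes.

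All 4 globins were below every PBS library at 72 h after LPS. Hbb-bs was at 1.37, 0.507 and 0 CPM, corresponding to 15, 6 and 0 reads, where 0 reads allow up to 0.219 CPM. Hba-a1 was at 4.40, 1.35 and 0.219 CPM and Hba-a2 at 1.37, 0.253 and 0 CPM. Hbb-bt, at 5.68, 2.62 and 4.39 CPM, was less far below its PBS level than Hbb-bs.

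Against PBS, none of the 9 genes was called at 72 h of LPS in the fit of all libraries, where 0.0201% of all tested genes were called. An unadjusted p below 0.05 was reached by 4 of the 9 genes, the 4 globins, against 11.4% of all tested genes. The log2 differences were -6.19 (SE 1.39, adjusted p = 0.151) for Hbb-bs, -4.71 (SE 1.36, adjusted p = 0.222) for Hba-a2, -4.32 (SE 1.40, adjusted p = 0.280) for Hba-a1 and -2.15 (SE 0.500, adjusted p = 0.152) for Hbb-bt. Those of the other 5 genes were from -2.13 (Car1, SE 1.46) to -0.90 (Gata1, SE 0.942). In the fit of both groups alone the 4 globins were called (adjusted p from 0.0440 to 0.0462), where 0.68% of 14554 tested genes were called, and DESeq2 called Hbb-bt and Hbb-bs (adjusted p = 0.00117 and 0.00250). Of the 9 genes, 6 (Epor, Car2 and the 4 globins) were lower in every LPS 72 h library than in any PBS library, against 7.01% of all tested genes. This comparison and the one at 24 h share the PBS libraries. All 12 macrophage markers had an unadjusted p below 0.05 and 0 were called (median log2 difference -5.30; 77.4 to 83.1 CPM in sum after LPS against 377 to 3524 CPM in PBS), and their part in the erythroid values was not tested.

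Between the time points after LPS alone, 7 of the 9 genes were lower in every 72 h library than in any 24 h library, against 23% of all tested genes; Car2 and Hbb-bt overlapped. Epor fell by 3.43 on the log2 scale (SE 1.21, adjusted p = 0.0418) and Hbb-bs fell by 4.24 (SE 1.39, adjusted p = 0.0299), where 31.1% of all tested genes were called, with 16.4% lower. Klf1 (-3.27, SE 1.30, adjusted p = 0.0668), Car1 (-3.85, SE 1.65, adjusted p = 0.0883) and Gata1 (-2.42, SE 1.05, adjusted p = 0.0928) did not pass. Hba-a1 (-2.59, SE 1.40), Hba-a2 (-2.82, SE 1.39), Car2 (-1.15, SE 0.714) and Hbb-bt (-0.52, SE 0.527) did not either. The fit of both groups alone called 6 of the 9 genes, adding Gata1, Klf1, Car1 and Hba-a1, where 27.4% of 13859 tested genes were called. With 1 library left out in turn, Epor was no longer called in 5 of 6 fits, all but that without LPS 24 h library 2, with an adjusted p of up to 0.128. Hbb-bs was no longer called in 4 of 6, all but those without LPS 24 h library 2 or LPS 72 h library 1, with an adjusted p of up to 0.0956. Of the mast cell and basophil markers, 5 of 6 fell (median log2 difference -2.76, sums of 148 to 481 CPM at 24 h and 47.9 to 83.1 CPM at 72 h). Of the HSPC markers, 7 of 10 rose (median 0.96, sums of 947 to 1123 CPM and 1679 to 2230 CPM). The part of both in the erythroid values was not tested.

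In the antibody group at 24 h the 3 libraries did not resemble each other. Klf1 was at 92.6, 27.5 and 1.30 CPM, Gata1 at 128, 38.5 and 5.44 CPM, and Epor at 52.4, 12.4 and 0.650 CPM in libraries 1 to 3. Car1 was at 1110, 250 and 7.31 CPM and Car2 at 874, 244 and 99.9 CPM. Library 1 thus held the highest level of all 17 libraries for each of these 5 genes, and library 3 was below all PBS libraries for each of them.

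The globins split along the same line with the exception of Hbb-bt. Hba-a1 was at 65.3, 3.59 and 0 CPM, Hba-a2 at 7.91, 0.780 and 0 CPM, and Hbb-bs at 28.8, 3.20 and 0.0812 CPM, the last being 1 read. Hbb-bt was at 26.9, 7.49 and 11.05 CPM. The highest library exceeded the lowest by 152 times for Car1, 80.6 times for Epor, 71.2 times for Klf1, 23.4 times for Gata1, 8.76 times for Car2 and 3.60 times for Hbb-bt. For Hba-a1 it did so at least 268 times and for Hba-a2 at least 32.4 times, with 3 reads set in the library at 0.

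At 72 h with the antibody the libraries were again spread, by 221 times for Car1, 46.7 times for Epor, 21.5 times for Gata1 and 8.36 times for Car2. Klf1 was at 39.7, 6.63 and 0.495 CPM, Gata1 at 71.3, 13.9 and 3.32 CPM, and Epor at 23.1, 5.13 and 0.495 CPM. Car1 was at 702, 104 and 3.18 CPM and Car2 at 481, 163 and 57.6 CPM. In this group library 1 was above all PBS libraries for each of these 5 genes and library 3 below all of them.

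Of the globins, Hba-a1, Hba-a2 and Hbb-bs were below every PBS library in all 3 of these libraries, including library 1, and Hbb-bt was within the PBS range in library 2. Hba-a1 was at 5.46, 4.48 and 0 CPM, Hba-a2 at 2.35, 1.03 and 0 CPM, Hbb-bs at 4.87, 2.80 and 0 CPM, and Hbb-bt at 6.39, 12.6 and 3.18 CPM. A library could therefore hold 71.3 CPM of Gata1 and 39.7 CPM of Klf1, more than any PBS library, with 4.87 CPM of Hbb-bs, less than any PBS library.

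A highest library over 10 times the lowest was found for 7 of the 9 genes in the antibody group at 24 h (4.67% of all tested genes), for 4 in LPS at 72 h (1.98%) and for 7 in the antibody group at 72 h (5.33%). It was found for none in PBS (1.57%) and none in LPS at 24 h (2.39%). The 9 genes were proposed because they split the antibody libraries, so these counts describe the choice and are no test. The SD of log2 CPM of Klf1 was 0.64 in PBS, 0.60 in LPS at 24 h, 3.09 with the antibody at 24 h, 2.03 in LPS at 72 h and 2.99 with the antibody at 72 h, against medians of 0.20 to 0.30 over all tested genes. The wide spread was thus also seen at 72 h without the antibody.

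**Figure D3:**
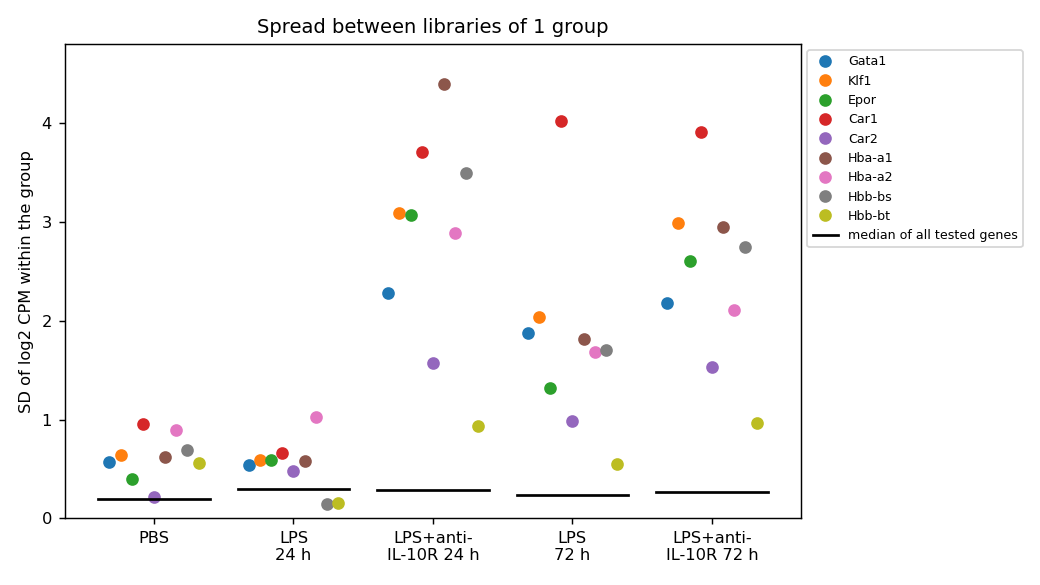
Standard deviation of log2 CPM between the libraries of a group for the 9 genes (points) and its median over all tested genes (black lines). In PBS and LPS at 24 h the points reach at most 1.03, and in the other 3 groups all but Hbb-bt, and Car2 in LPS at 72 h, lie above 1.

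Markers of other lineages differed across the same libraries. With the antibody at 24 h, mast cell and basophil markers summed to 762, 417 and 63.3 CPM in libraries 1 to 3, megakaryocyte markers to 312, 172 and 63.7 CPM, and neutrophil markers, led by Mpo, which granulocyte progenitors also express, to 4081, 9717 and 10872 CPM. With the antibody at 72 h these sums were 330, 188 and 48.8 CPM, 317, 275 and 41.8 CPM, and 3268, 9054 and 11067 CPM. In both groups library 3, the lowest for most of the 9 genes, had the lowest mast cell and megakaryocyte sums and the highest neutrophil sum. At 24 h the neutrophil sum of library 3 was carried by Mpo, and S100a8, S100a9, Ltf, Camp and Ngp, genes of maturing neutrophils, were highest in library 2 (S100a9 at 18.5, 188 and 16.6 CPM in libraries 1 to 3). Ly6a, which encodes the stem cell marker Sca-1, was at 530, 266 and 58.1 CPM at 24 h and at 632, 84.9 and 64.7 CPM at 72 h. It is 1 of 10 HSPC markers, and their sum did not follow that order at 24 h. The sum of the 10 was 1396, 1072 and 1253 CPM at 24 h and 1735, 1482 and 1112 CPM at 72 h. In LPS at 72 h without the antibody, the other sums were ordered as with it. Mast cell and basophil sums were 83.1, 60.1 and 47.9 CPM and megakaryocyte sums 178, 108 and 62.6 CPM. Neutrophil sums were 5927, 11246 and 12075.5 CPM. The neutrophil order differed elsewhere. PBS library 5, lowest for Gata1, Klf1, Epor and Car1, had the lowest neutrophil sum in PBS, 2353 CPM. LPS 24 h library 1, highest in Gata1, had the highest of its group, 15900 CPM. The part of these markers in the erythroid values was not tested.

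With this spread, none of the 9 genes was called for the antibody at 24 h against PBS, where 24.2% of all tested genes were called, and none had an unadjusted p below 0.05, against 38.6%. The log2 difference was 1.78 (SE 1.01, adjusted p = 0.209) for Klf1, -2.03 (SE 1.02, adjusted p = 0.155) for Hbb-bs and -0.30 (SE 0.449, adjusted p = 0.648) for Hbb-bt. Without library 1 of the antibody group, 3 globins were called: Hba-a1 (-4.42, adjusted p = 0.0280), Hba-a2 (-5.08, adjusted p = 0.0236) and Hbb-bs (-4.72, adjusted p = 0.0162). That library held the highest level of these genes in its group (65.3, 7.91 and 28.8 CPM), so leaving it out lowers the group. The 24.2% belongs to the fit of all libraries, and the share for this refit is not given here. No gene of the 9 had antibody libraries all above or all below PBS, against 31% of all tested genes.

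For the antibody at 72 h against PBS, 1 of 9 genes was called, where 13.2% of all tested genes were called, with 6.43% lower. Hbb-bs fell by 4.13 on the log2 scale (SE 1.18, adjusted p = 0.0342), a call that was lost in 6 of 8 fits with 1 library left out (all but those without PBS library 1 or 4), with an adjusted p of up to 0.0911. Hba-a1 (-3.57, SE 1.32, adjusted p = 0.0782), Hba-a2 (-3.62, SE 1.24, adjusted p = 0.0615) and Hbb-bt (-1.35, SE 0.475, adjusted p = 0.0672; 0.0282 without library 2 of the antibody group) did not pass, and Klf1 differed by 0.40 (SE 1.04, adjusted p = 0.827). In the fit of both groups alone Hba-a1, Hba-a2 and Hbb-bs were called, where 16.1% of 14648 tested genes were called. These 3 genes were lower in every antibody library than in any PBS library, against 13.6% of all tested genes.

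The comparison of LPS with and without the antibody sets both LPS groups of the same time side by side. The sample titles name no control antibody, so blocking the receptor and giving an antibody cannot be told apart here. At 24 h none of the 9 genes was called, and none of all tested genes was (0%; 1.83% had an unadjusted p below 0.05, and DESeq2 called 1 gene of all). Klf1 differed by 0.23 (SE 1.14, adjusted p = 1.00) and the log2 difference of Hbb-bs was -0.08 (SE 1.07, adjusted p = 1.00). Hbb-bt was higher in all 3 antibody libraries than in any LPS library, with a log2 difference of 1.33 (SE 0.515, unadjusted p = 0.0203, adjusted p = 1.00), where 1.88% of all tested genes were higher without overlap. Without library 1 of the antibody group it was 0.62 (adjusted p = 1.00).

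At 72 h none of the 9 genes was called between LPS with and without the antibody, where 15.1% of all tested genes were called, and none had an unadjusted p below 0.05, against 32.5%. Klf1 differed by 2.11 (SE 1.27, adjusted p = 0.260), Hbb-bs by 2.06 (SE 1.46, adjusted p = 0.343) and Hbb-bt by 0.80 (SE 0.527, adjusted p = 0.309). The median of the 9 genes was 1.65, against 0.01 for all tested genes, and the libraries of both groups overlapped for each of the 9, whereas 33.2% of all tested genes did not overlap. The difference between the antibody effects at 72 h and 24 h was not called for any of the 9 either, where 6.37% of all tested genes were called: 1.89 for Klf1 (SE 1.70, adjusted p = 0.535), 2.15 for Hbb-bs (SE 1.81, adjusted p = 0.504) and -0.53 for Hbb-bt (SE 0.732, adjusted p = 0.706).

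Between the antibody groups at 72 h and 24 h, Klf1 differed by -1.38 (SE 1.18), Hbb-bs by -2.10 (SE 1.17) and Hbb-bt by -1.05 (SE 0.512). None of the 9 genes and none of all tested genes was called by edgeR (0%), with an unadjusted p below 0.05 for 0 of the 9 and 4.25% of all; DESeq2 called 2 genes of all and 0 of the 9.

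Across the 17 libraries the genes fell into sets by their log2 CPM, given here as a description of points that share groups and sequencing depth. Gata1, Klf1, Epor, Car1 and Car2 correlated with each other at r = 0.904 to 0.988. Hba-a1, Hba-a2 and Hbb-bs correlated at r = 0.970 to 0.976. Between these sets r was 0.591 to 0.864, and 0.823 to 0.940 once each group's mean was subtracted. Hbb-bt stood apart from the others, at r = 0.293 to 0.562 with the first set and 0.691 to 0.726 with the other globins.

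The reads of Hbb-bs per read of Klf1 show how the sets parted. There were 1.45 to 14.2 (median 2.77) in PBS and 0.287 to 0.495 (median 0.291) in LPS at 24 h, with no overlap. In the later and antibody groups the ratio was 0.0625 to 0.311 with the antibody at 24 h, 0 to 0.231 in LPS at 72 h and 0 to 0.423 with the antibody at 72 h. All 12 libraries of mice given LPS, with or without antibody and at both times, thus had fewer Hbb-bs reads per Klf1 read than any of the 5 PBS libraries. For Hba-a1 per Klf1 the ratio was 1.45 to 11.9 in PBS and at most 0.705 in the 12 LPS libraries. Hbb-bt did not part the groups in this way. In library 3 of LPS at 72 h, 60 Hbb-bt reads stood against 5 Klf1 reads. With the antibody, library 3 held 136 against 16 at 24 h and 45 against 7 at 72 h. Per Klf1 read each is more than in any PBS library, the highest being library 5 with 461 against 78. With both beta-globin genes added, PBS and LPS libraries overlapped.

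**Figure D4:**
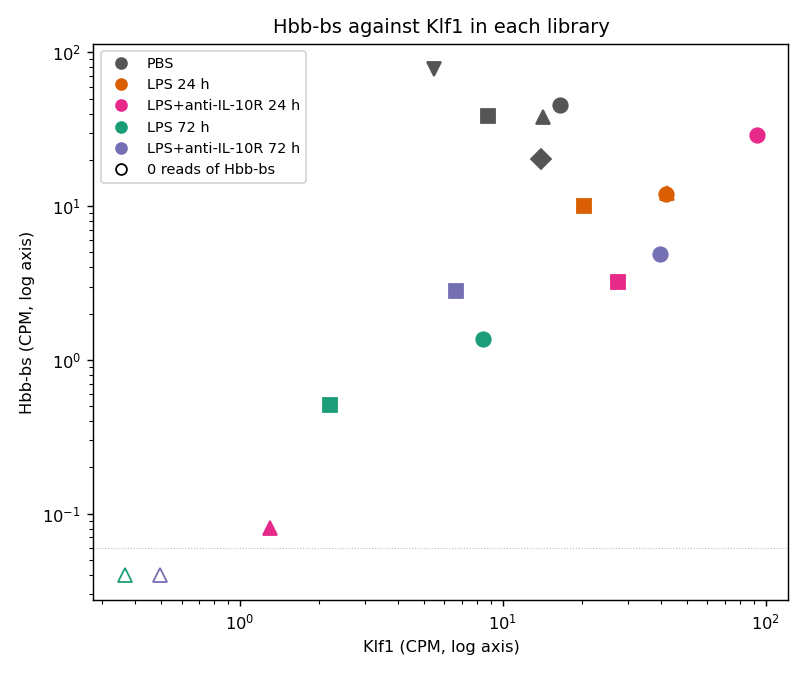
CPM of Hbb-bs against CPM of Klf1 in each library (both axes log), coloured by group, with circles, squares and triangles for replicates 1, 2 and 3; open symbols below the dotted line had 0 reads of Hbb-bs. The 5 PBS libraries hold at least 1.45 Hbb-bs reads per Klf1 read and the 12 LPS libraries at most 0.495. Reads counted under Hbb-bt are left out, and with them added PBS and LPS libraries overlap. Library 3 of the antibody group at 24 h, of LPS at 72 h and of the antibody group at 72 h rests on 16, 5 and 7 Klf1 reads. LPS 24 h libraries 1 and 3 lie on each other.

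The share of the adult beta-globin reads counted under Hbb-bt differed between the groups. It was 28.0% to 35.3% of the reads of both genes in PBS and 33.2% to 35.6% in LPS at 24 h. In the antibody group at 24 h the share was 48.3% (95% Wilson interval 44.9% to 51.8%), 70.1% (61.9% to 77.1%) and 99.3% (96.0% to 99.9%) in libraries 1 to 3. At 72 h it was 80.5%, 83.8% and 100% in LPS and 56.7%, 81.8% and 100% with the antibody. The libraries at 100% rest on 60 and 45 reads of Hbb-bt, with lower interval bounds of 94.0% and 92.1%. Every library of these 3 groups lay above every PBS and LPS 24 h library. Since the copies differ at 1 coding base, the assignment of these reads is uncertain, as stated above.

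**Figure D5:**
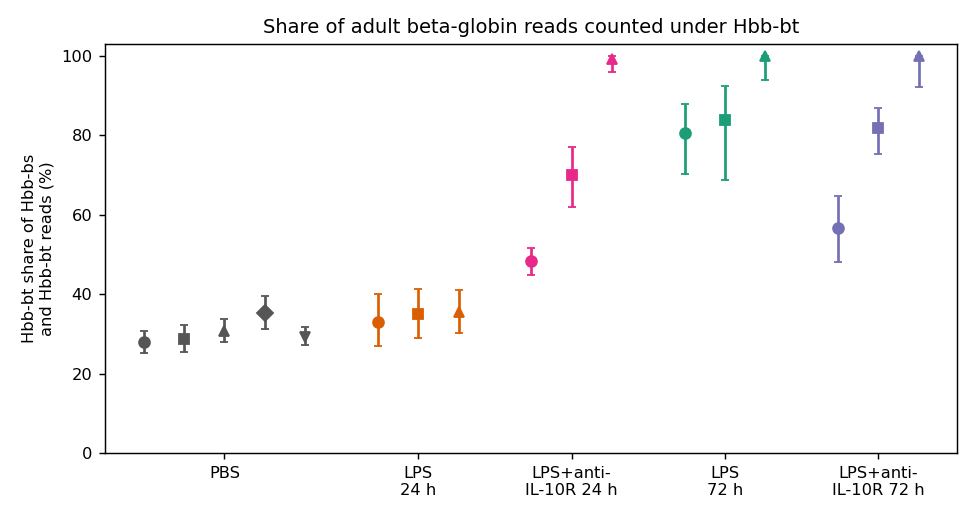
Share of the reads of Hbb-bs and Hbb-bt that were counted under Hbb-bt, per library, with 95% Wilson intervals (bars). PBS and LPS 24 h libraries lie between 28.0% and 35.6%, and all others at 48.3% or above.

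The tested genes most like the 9 in pattern, by Pearson correlation with their mean centred log2 CPM over the 17 libraries, included Lmna, Epb42, Shank3, Paqr9, Add2, Pklr, Aqp9 and Ermap (r = 0.957 to 0.944). Several are known red cell genes: Epb42 and Add2 encode proteins of the red cell membrane skeleton, Pklr the red cell pyruvate kinase and Ermap a red cell adhesion protein. For the 5 factor, receptor and carbonic anhydrase genes alone, the nearest genes were Ces2g, Aqp1, Add2, Ermap and Mfsd2b (r = 0.992 to 0.986). For the globins alone they included Slc4a1, Mgll, Alas2 and Ormdl3 (r = 0.938 to 0.889), Slc4a1 being the band 3 anion exchanger and Alas2 the erythroid enzyme that starts heme synthesis. The lists of 10 for the factors and for the globins had 0 genes in common. Once group means were subtracted, 5 of the 10 nearest genes remained for all 9, 7 of 10 for the factors and 2 of 10 for the globins. For Hbb-bt alone the 10 nearest included Slc11a1 (r = 0.833), Slc4a1 (0.821) and Mertk (0.777), the last from the list of macrophage markers. Mertk had a mean of 24.8 CPM in PBS and 0.213 CPM in LPS at 24 h. It left these 10 once group means were subtracted. The part of macrophages in the Hbb-bt values was not tested. These subsets were chosen after the data were seen.

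Other genes of the pathway were taken from lists. Among 7 iron uptake genes, 3 rose at 24 h of LPS against PBS and 0 fell: Tfrc, the transferrin receptor (log2 1.49, SE 0.400, adjusted p = 0.00941), Slc11a2, an iron transporter (1.02, SE 0.292, adjusted p = 0.0133), and Steap3, an iron reductase (0.79, SE 0.179, adjusted p = 0.00362). Without LPS 24 h library 3 the calls of Tfrc and Slc11a2 were lost, and that of Tfrc was also lost in the fit with the replicate block (1.41, adjusted p = 0.0560). The same 3 fell between 24 h and 72 h of LPS, by 2.18, 1.61 and 1.38 on the log2 scale. In that comparison 31.1% of all tested genes were called, with 16.4% lower. Tfrc was at 152 ± 39.2 CPM (SD, n = 5) in PBS, 427 ± 210 (n = 3) at 24 h and 94.4 ± 7.55 (n = 3) at 72 h of LPS.

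Of 9 heme synthesis genes, 1 rose and 0 fell at 24 h of LPS against PBS, with a median log2 difference of 0.43 against -0.03 for all tested genes. Between 24 h and 72 h of LPS the median was -0.49 against 0.02. In that comparison 3 fell and 0 rose, where 31.1% of all tested genes were called, with 16.4% lower. Among these, Cpox fell by 1.36 on the log2 scale (adjusted p = 0.0226) and Alas2 fell by 2.66 (adjusted p = 0.0494), calls that were lost in 4 and 7 of 12 other settings. The level of Alas2 was 5.11 ± 2.26 CPM (SD, n = 5) in PBS and 1.81 ± 0.936 (n = 3) at 24 h of LPS, a difference that did not pass the test (adjusted p = 0.117).

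Of 14 transcription partners of the factors, 1 rose and 4 fell at 24 h of LPS. Mybl2, a cell cycle factor, rose by a log2 difference of 1.04 (adjusted p = 0.000487) and Foxo3, which acts in erythroid maturation and stem cell maintenance, fell by 0.81 (adjusted p = 0.000818). Of 11 tested genes of erythropoietin signalling, 0 rose and 4 fell, among them Socs2, a feedback inhibitor of the receptor pathway (-2.06, adjusted p = 0.00133), and Gab1, an adaptor (-1.31, adjusted p = 0.00858). For all of these lists the background at 24 h of LPS against PBS is 37.6% of tested genes called, with 19.1% higher and 18.5% lower. Other carbonic anhydrases gave 1 higher and 1 lower of 8 tested, with Car12 at 1.46 (adjusted p = 0.00151).

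Of 18 red cell membrane genes, 0 passed in either direction at 24 h of LPS, with a median log2 difference of 0.80 against -0.03 for all tested genes. Their summed level was 323 to 529 CPM in PBS, 554 to 1043 CPM in LPS at 24 h and 191 to 295 CPM in LPS at 72 h. With the antibody it ranged from 218 to 2213 CPM at 24 h and from 213 to 1505 CPM at 72 h, the same kind of split as for the 9 genes. Between 24 h and 72 h of LPS 1 of 18 fell, against 16.4% of all tested genes. It was Icam4, an adhesion molecule of red cell precursors (-1.45, adjusted p = 0.0409, lost in 6 of 12 other settings). Of the 6 other globin genes in the table, all embryonic or theta-like, 0 reached the filter, and their summed level was at most 0.63 CPM in any library.

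Some pathway genes outside the 9 did pass the test of the antibody at 72 h. Against LPS alone, Mybl2 rose by a log2 difference of 1.11 (adjusted p = 0.00184), Tfrc by 1.55 (adjusted p = 0.0377), Epb41, which encodes the red cell membrane skeleton protein 4.1, by 0.98 (adjusted p = 0.0184) and Car12 by 2.06 (adjusted p = 0.00222). The call of Tfrc was lost in 5 of 12 other settings, among them each fit without 1 LPS 72 h library, and that of Epb41 in 4. The antibody effect was larger at 72 h than at 24 h for Mybl2 (difference 1.14, SE 0.248, adjusted p = 0.0163) and Car12 (2.39, SE 0.464, adjusted p = 0.0119), the first call being lost without library 3 of the antibody group at 24 h or without LPS 72 h library 1, or in the fit with the replicate block (adjusted p = 0.0574). Mybl2 was at 62.8 ± 7.16 CPM (SD, n = 3) in LPS at 72 h and 136 ± 8.70 (n = 3) with the antibody, with far less spread between libraries than Klf1. At 24 h, 0 genes of these lists passed between LPS with and without the antibody.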

How the data were processed

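RNA was measured by sequencing in 17 libraries of sorted mouse bone marrow HSPC. The authors deposited 1 table of raw counts (whole reads per gene symbol, not normalized), and 0 of its sample columns were unmatched to a label. The submitters' processing notes name HISAT2 2.2.0, Subread, featureCounts 2.1.1, R 4.3.2, DESeq2 and the build GRCm38, without roles. Annotation, strand setting and the handling of multi-mapped reads are not given in the sources used here, which leaves the counts of near-identical globin copies and of overlapping genes uncertain. Gene positions and exon lengths are from GENCODE M21 (GRCm38).

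From these counts, genes were kept by edgeR's filterByExpr (minimum count 10, minimum total 15), which left 14920 genes holding 99.9% of all counts. All 17 libraries entered 1 quasi-likelihood fit (edgeR 4.0.16 in R 4.3.3, limma 3.58.1) with TMM scaling and a mean per group, taken from the sample titles. Tests were two-sided, with Benjamini-Hochberg adjustment over all tested genes and calls below 0.05. The SE of a log2 difference was taken as its absolute value over sqrt(F). CPM are counts per 1000000 of the TMM-scaled total. Correlations used log2 CPM with a prior count of 2. The replicate numbers in the titles were checked for pairing, which the labels do not state. Deviations from group means of same-numbered libraries correlated at r = -0.36 to 0.72 over 24 pairs in 8 comparisons. In 1 comparison, LPS at 24 h against PBS, all 3 pairs were over 0.1 (0.16 to 0.19). Between the antibody groups at 72 h and 24 h, r was 0.72, -0.02 and 0.70 for numbers 1 to 3. These values do not show that the numbers pair the samples, so the main fit holds no pairing. The fitting script was tested on simulated data. Comparisons were each LPS group against PBS, 72 h against 24 h, with against without antibody, and the difference between the antibody effects.

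Alternatives were DESeq2 1.42.0 (Wald test), DESeq2 and upper-quartile scaling, no filter, the replicate number as a block, a fit of the compared groups only, and each library left out. Upper-quartile scaling and the gene subsets used for likeness in pattern were added after seeing the data. All 9 genes are named. From each pathway list, the 2 most abundant members and up to 4 called with the smallest adjusted p in a comparison could be named, with the 10 genes most alike in pattern. The 9 genes and all lists were chosen with earlier results of these data known. Results for a few genes of these lists are not reported here.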

Additional observations from a re-analysis of the deposited data

Results flagged for a closer look

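No library of the PBS group, the 1 group large enough for that check, stood apart for any of the 9 genes by Dixon's test; chance would flag about 1 in 20 such checks. Between 24 h and 72 h of LPS, the change from PBS differed for Epor (-3.43 on the log2 scale) and Hbb-bs (-4.24). It also differed for genes of the pathway lists: Foxo3 (0.65), Mybl2 (-1.21), Gab1 (1.42), Alas2 (-2.66), Cpox (-1.36), Tfrc (-2.18), Slc11a2 (-1.61), Steap3 (-1.38), Icam4 (-1.45) and Car12 (-2.08). The PBS libraries drop out of these differences. The antibody effect at 72 h minus that at 24 h differed for Mybl2 (1.14) and Car12 (2.39), and for 0 of the 9 erythroid genes.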

How the results depend on the processing

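The directions of the 9 genes in the 3 comparisons without antibody held under all settings run, whereas 12 of 486 results turned in sign under settings other than leaving out a library, all of them in comparisons with antibody, and 45 of 612 with 1 library left out. The number of the 9 genes called depended on the setting. The fit of the compared groups only, which leaves the spread of the other groups out, called 8 for LPS at 24 h against PBS, 4 for LPS at 72 h against PBS, 3 for the antibody at 72 h against PBS and 6 for LPS at 72 h against 24 h. The DESeq2 Wald test called 2, 2 and 4 for the last 3 of these. With the replicate number as a block, the calls were 1 for the antibody at 24 h against PBS, 0 for the antibody at 72 h against PBS and 6 for LPS at 72 h against 24 h; Klf1 turned to -0.86 for the antibody at 72 h against PBS and to -0.80 for the antibody against LPS at 24 h. In the comparison of LPS at 24 h with PBS, the block left 1 of the 9 genes called (Hbb-bt, -1.46, adjusted p = 0.0418). It ended the call of Tfrc there and kept those of the other list genes named as called. The labels do not state a pairing, so in every comparison the block is a check only. For these counts by DESeq2 and the block, and those below with 1 library left out, the share of all tested genes called is not given here. The causes of these shifts, other than the libraries left out, were not tested.

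With 1 library left out, the calls ranged from 0 to 1 for LPS at 24 h against PBS, 0 to 3 for the antibody at 24 h against PBS, 0 to 1 for the antibody at 72 h against PBS and 0 to 2 for LPS at 72 h against 24 h. Klf1 ranged from -1.75 to 0.97 (antibody at 72 h against PBS), -3.56 to 0.11 (antibody at 72 h against 24 h), -1.27 to 0.80 (antibody against LPS at 24 h), -0.012 to 3.63 (antibody against LPS at 72 h) and -0.26 to 3.40 (difference of antibody effects). Hbb-bt ranged from -1.01 to 0.048 (antibody at 24 h against PBS) and -1.13 to 0.18 (difference of antibody effects), and Hbb-bs from -3.05 to 0.60 (antibody at 72 h against 24 h) and -2.78 to 0.50 (antibody against LPS at 24 h). Of 470 refits of the named list genes, 66 lost the call and 0 turned. Upper-quartile scaling moved the median log2 difference of all genes at 24 h of LPS against PBS from -0.03 to -0.16 and changed no count of the 9. Depth limits globin values in the libraries with 0 to 3 reads.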
